A study of Mus musculus with 15 samples.

Results

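Interferon-stimulated genes are the genes a cell switches on when it senses an interferon, and 43 of them were followed here through mouse kidney and lung injury and through neutralization of the hormone leptin. The members were picked by gene name from a list of known interferon targets and not by a cut on measured values, though earlier results of these data were known. All 43 were found among the 56748 genes of the count table, of which 37808 had a count in any library. They fell into 8 groups by the role of their products: 4 transcription factors, 4 sensors of RNA and other nucleic acids, 4 members of the IFIT family, 6 of the OAS family, 2 Mx GTPases, 3 genes of ISG15 conjugation, 8 GBP and IRG GTPases and 12 other effectors.

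The animals were male wild-type C57Bl/6 mice, and 3 libraries, each taken as 1 mouse, formed each group. The table column of LepL 3 carries a suffix that the others lack, so it may be a repeat library of that mouse. In the kidney arm, mice aged 10 to 12 weeks received vehicle (WTK, with no antibody named in the labels), folic acid at 200 mg/kg with control IgG (IgGK), or folic acid at 200 mg/kg with the leptin-neutralizing antibody LepAb (LepK). In the lung arm, mice aged 12 weeks received bleomycin at 1.5 units/kg into the trachea with control IgG (IgGL) or with LepAb (LepL), and no lung of a mouse without bleomycin was analysed here. Antibody or IgG was given at 10 mg/kg every other day from day 1, and organs were taken on day 28 (kidney) or day 14 (lung). In the kidney arm the injections ended before day 28, while in the lung arm they ran up to day 14. Folic acid at this dose injures tubules and leaves a scarred kidney, bleomycin does the same to the alveoli, and the study asked whether blocking leptin reduces that scarring. The comparisons made were IgGK against WTK (injury), LepK against IgGK (antibody in injured kidney), LepK against WTK (what remained under the antibody), LepL against IgGL (antibody in injured lung), and the difference between the antibody effects of the organs (kidney minus lung).

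Interferons reach the nucleus by a pair of overlapping routes. Type I and type III interferons act through receptors linked to the kinases JAK1 and TYK2. Their signal gathers a complex with STAT2 and IRF9 that binds the interferon-stimulated response element, a repeat of GAAA blocks that other IRF proteins also bind. Interferon-gamma, made mainly by T cells and natural killer (NK) cells, acts through JAK1 and JAK2 and leads to binding at the GAS element. It is known above all for inducing IRF1 and the GBP and IRG GTPases. The products of both routes block viral entry, translation and replication, degrade RNA, tag proteins with ISG15 and attack vacuoles that hold microbes, and they are known to rise in injured as well as in infected tissue.

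The promoters of the leading members are shown first because the response element is a site through which the interferon signal acts. RefSeq promoter windows (build GRCm38.p6) were matched for 34 of the 43 members. The entries for *Dhx58*, *Zbp1*, *Oas2*, *Mx1*, *Mx2*, *Usp18*, *Rtp4*, *Parp14* and *Ifi27* were not matched. The 250 bases before each annotated start were searched on both strands for the core of the IRF element, GAAANNGAAA, and for the GAS core, TTCNNNGAA, and overlapping matches were each counted. In 1 member window a match of one motif overlapped a match of the other. The IRF core was in 19 of the 34 members (55.9%) and in 3.46% of all 27025 genes with a window. The GAS core was in 10 of the 34 (29.4%) and in 8.13% of all. Both motifs were found in 6 members, and 6 members had several windows. Below are the 250 bases before the start for the member with the largest change in injured kidney in each role group whose leader had a window, with matches of either core in capitals. *Ifit2* has several windows, and the first is printed.
Irf7 (chr7:141266425-141266674, minus strand): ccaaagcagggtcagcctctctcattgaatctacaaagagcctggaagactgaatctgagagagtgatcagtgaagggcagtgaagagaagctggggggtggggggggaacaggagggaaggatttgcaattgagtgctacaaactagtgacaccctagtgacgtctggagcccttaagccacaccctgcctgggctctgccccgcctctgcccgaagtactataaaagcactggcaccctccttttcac
Ifit2 (chr19:34550444-34550693, plus strand): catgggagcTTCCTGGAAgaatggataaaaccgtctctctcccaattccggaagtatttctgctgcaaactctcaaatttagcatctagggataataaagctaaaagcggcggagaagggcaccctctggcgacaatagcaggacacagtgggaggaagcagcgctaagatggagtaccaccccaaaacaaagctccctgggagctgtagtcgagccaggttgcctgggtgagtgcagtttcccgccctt
Oas1g (chr5:120887614-120887863, minus strand): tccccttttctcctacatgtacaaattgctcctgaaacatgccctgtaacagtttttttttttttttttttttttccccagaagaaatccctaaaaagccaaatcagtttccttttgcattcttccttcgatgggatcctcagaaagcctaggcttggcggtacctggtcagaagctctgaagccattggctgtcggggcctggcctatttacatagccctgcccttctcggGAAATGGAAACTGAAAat
Ube2l6 (chr2:84798578-84798827, plus strand): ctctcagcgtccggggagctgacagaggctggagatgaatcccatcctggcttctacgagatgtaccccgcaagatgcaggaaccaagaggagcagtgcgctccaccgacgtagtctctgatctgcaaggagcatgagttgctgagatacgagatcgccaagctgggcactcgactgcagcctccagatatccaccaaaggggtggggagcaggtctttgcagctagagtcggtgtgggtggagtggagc
Gbp5 (chr3:142496684-142496933, plus strand): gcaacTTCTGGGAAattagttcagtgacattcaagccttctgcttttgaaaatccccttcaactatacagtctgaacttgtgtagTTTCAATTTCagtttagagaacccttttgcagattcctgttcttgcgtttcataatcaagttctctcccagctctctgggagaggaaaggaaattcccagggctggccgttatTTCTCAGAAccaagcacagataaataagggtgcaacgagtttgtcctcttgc
The *Oas1g* window held 2 overlapping IRF cores ending 2 bases before the start. *Gbp5* held 1 IRF core and 2 GAS cores, *Ifit2* held 1 GAS core in the first window, and these letters were not in the *Irf7* and *Ube2l6* windows.

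The IRF core was also compared between members that were and were not called in the injured kidney. It was found in 15 of the 29 members with a window that rose in IgGK, and in 4 of the 5 with a window that did not pass the test there. Each line below gives 30 bases around the core nearest to the start, for members of several families chosen after their values were seen, with the core in capitals. The first 6 rose in injured kidney and the last 4 did not pass the test.
Isg15 (chr4:156200865-156200894, minus strand): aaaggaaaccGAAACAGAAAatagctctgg
Ifit3 (chr19:34583397-34583426, plus strand): tttaagtctgTTTCAGTTTCtactttcctc
Ifit3b (chr19:34607793-34607822, plus strand): tttaagtctgTTTCAGTTTCtactttcctc
Oas1a (chr5:120907526-120907555, minus strand): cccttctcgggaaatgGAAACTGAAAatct
Gbp2 (chr3:142620594-142620623, plus strand): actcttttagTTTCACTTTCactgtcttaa
Bst2 (chr8:71537577-71537606, minus strand): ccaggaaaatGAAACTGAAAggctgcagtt
Igtp (chr11:58199512-58199541, plus strand): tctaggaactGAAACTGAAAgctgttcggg
Irgm2 (chr11:58214903-58214932, plus strand): tccaggaactGAAACTGAAAgctgttcggg
Irgm1 (chr11:48871425-48871454, minus strand): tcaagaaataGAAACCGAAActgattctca
Rsad2 (chr12:26456553-26456582, minus strand): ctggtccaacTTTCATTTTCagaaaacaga
The core thus stood in front of members that rose and of members that did not pass the test. The printed stretches of *Ifit3* and *Ifit3b* were the same letter for letter.

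Many members sit in gene clusters and resemble one another. The sample records list the build GRCm39, and in the positions the table gives, the *Ifit* genes lay together on chromosome 19 (34528094 to 34627409). *Oas1a*, *Oas1g*, *Oas2* and *Oas3* lay on chromosome 5 (120868398 to 121045584), with *Oasl1* and *Oasl2* apart on the same chromosome (115034997 to 115075974). The 4 *Gbp* genes followed each other on chromosome 3 (142199739 to 142343769). In GENCODE transcripts, 31.7% of the 100-base stretches of *Ifit3* also occurred in another gene, all in *Ifit3b*, and 40.9% of those of *Oas1a* occurred in *Oas1g*. Shares over 5% were found for 7 members, *Ifit3*, *Ifit3b*, *Oas1a*, *Oas1g*, *Gbp7*, *Igtp* and *Rtp4*, so their counts depend on how shared reads were assigned. *Igtp* and *Irgm2* overlap over 7974 bases on one strand. The libraries did not keep the strand, so reads where *Irf1*, *Dhx58*, *Irf7* and *Rtp4* overlap a gene on the other strand could not be told apart either.

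The libraries held 25913969 to 38924788 counted reads, and every member passed the filter on low counts in every comparison, so that no member was dropped. Levels are given as FPKM, the authors' values normalized for gene length and for read number after a scaling of each library. Changes are log2 fold changes from edgeR. The call required an adjusted p under 0.05 over all genes tested and a log2 fold change beyond 0.5 in size. The tissue labels held: markers of distal nephron summed to 683.2 to 1118 FPKM in kidney and 0.27 to 0.97 FPKM in lung, and alveolar markers to 2.63 to 5.87 FPKM in kidney and at least 3758 FPKM in each lung. IgGK 2 held the highest level of its group for 39 of the 43 members (36.9% of all genes), IgGL 3 for 28 (33.9%) and LepL 1 for 29 (35.7%), while LepL 2 held the lowest level for 30 (31.2%). Counts without single libraries are given with the antibody comparisons.

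In vehicle-treated kidney the genes were present at low levels. Of the 43 members, 4 had a mean over 10 FPKM in WTK, 30 lay between 1 and 10 FPKM and 9 lay below 1 FPKM. *Ifi27*, a small hydrophobic protein strongly induced by interferon, was the highest at 34.03 FPKM (mean of 3), and *Oas3* the lowest at 0.117 FPKM. The summed FPKM of the members was 173.4, 182.5 and 193.1 in the 3 WTK libraries, 361.5, 462.4 and 359.2 in IgGK, and 264.9, 311.9 and 279.5 in LepK. The 3 groups did not overlap in this sum.

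**Figure D1:**
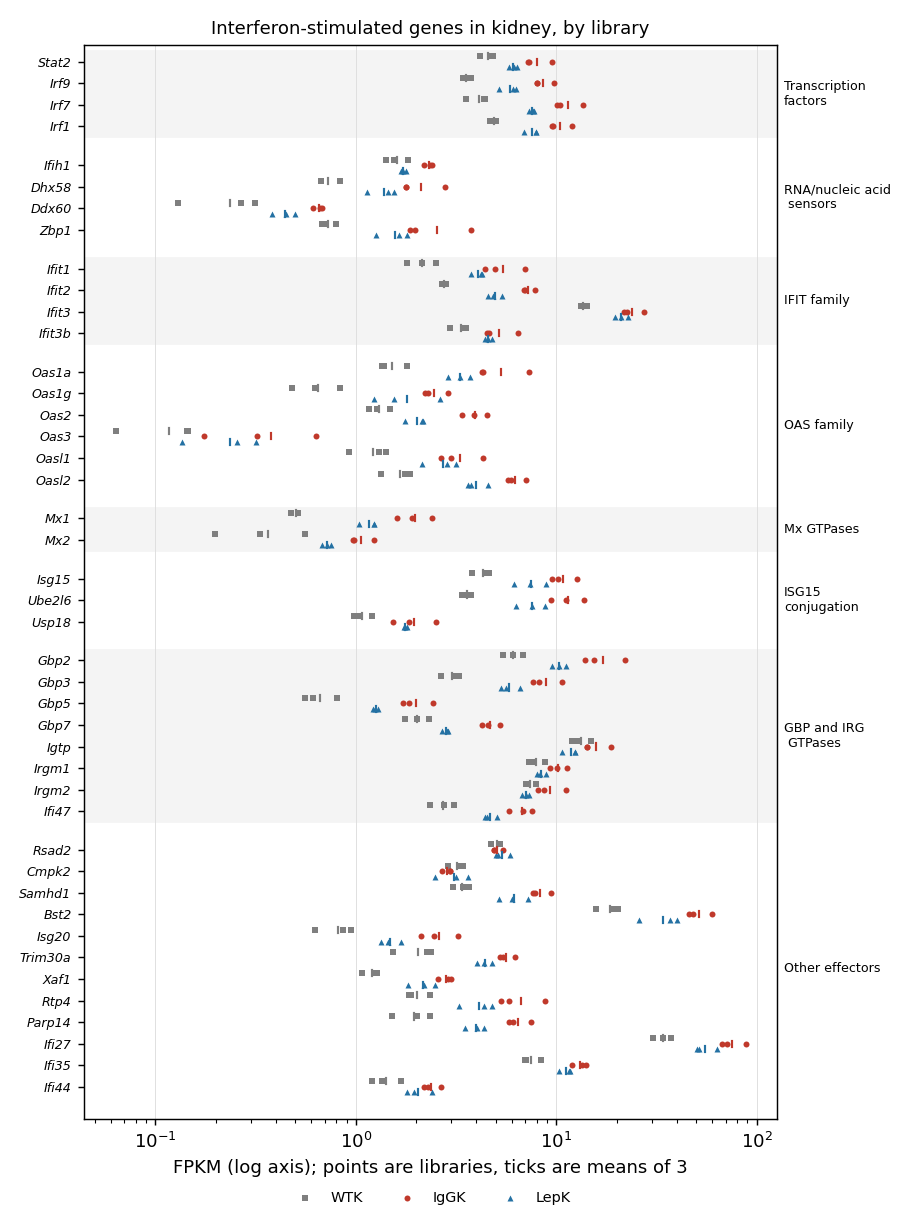
Level of each of the 43 genes (rows, by role) in the 9 kidney libraries, in FPKM on a log axis, with points for libraries and ticks for the means of 3. For most genes the IgGK circles lie to the right of the WTK squares with the LepK triangles between them, while the symbols of *Rsad2*, *Cmpk2* and *Igtp* lie among one another.

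Most of the list was higher in the kidneys given folic acid and IgG than in vehicle kidneys. No antibody is named for WTK. If none was given, folic acid and IgG dosing cannot be told apart in this comparison. Of 43 members, 38 were higher in IgGK than in WTK and 0 were lower, while 21.7% of all genes tested were called higher and 15.6% lower. The median log2 fold change was 1.43 over the members and 0.04 over all genes tested. All members of the transcription factor, sensor, IFIT, OAS, Mx and ISG15 groups rose, as did 5 of 8 GBP and IRG GTPases and 10 of 12 other effectors. Group medians ran from 1.11 for the IFIT family to 1.80 for the Mx GTPases and 1.79 for the OAS family. The count was 36 without IgGK 2. For the directions without a called member in the kidney comparisons, 0 members had an unadjusted p under 0.05 in edgeR, and DESeq2 called 0 as well.

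The largest changes were in GTPases and OAS enzymes. *Mx1*, a dynamin-like GTPase that traps incoming viral ribonucleoprotein, was at 0.478, 0.514 and 0.514 FPKM in WTK and at 1.61, 2.40 and 1.92 FPKM in IgGK. Each injured kidney lay above every vehicle kidney, as for 40 of the 43 members and 6371 of all 19593 genes tested. The log2 fold change of *Mx1* was 2.01 (SE 0.20, adjusted p = 3.7e-06). In C57BL/6 mice *Mx1* is known to carry a deletion that leaves no working protein, so its transcript serves here as a readout. The OAS enzymes make the 2′-5′ oligoadenylates that switch on RNase L. *Oas1g* rose from 0.483, 0.628 and 0.830 FPKM to 2.22, 2.88 and 2.29 FPKM (log2 fold change 1.96, SE 0.30, adjusted p = 0.000115). *Oasl2*, an OAS-like protein with ubiquitin-like domains, rose from 1.33, 1.77 and 1.87 to 5.74, 7.10 and 5.96 FPKM (log2 fold change 1.96, SE 0.14, adjusted p = 2.17e-07). *Oas1a* was at 1.35, 1.80 and 1.38 FPKM in WTK and at 4.24, 7.28 and 4.34 FPKM in IgGK, with IgGK 2 well above the other two (log2 fold change 1.85, SE 0.23, adjusted p = 2.05e-05). *Zbp1*, a sensor of Z-form nucleic acids that can start necroptosis, moved from 0.679, 0.704 and 0.796 to 1.87, 3.76 and 1.97 FPKM (log2 fold change 1.84, SE 0.27, adjusted p = 7.63e-05), again with the highest value in IgGK 2.

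In the remaining role groups, the called member with the highest mean FPKM over all 15 libraries is given. The transcription factor *Irf1*, which drives antigen presentation and GBP genes, went from 5.01, 4.98 and 4.68 FPKM in WTK to 9.67, 12.01 and 9.54 FPKM in IgGK (log2 fold change 1.13, SE 0.10, adjusted p = 1.15e-06). *Ifit3*, part of the complex that binds foreign RNA ends, was already at 13.3, 13.4 and 14.3 FPKM in vehicle kidney and reached 21.9, 27.3 and 22.5 FPKM (log2 fold change 0.84, SE 0.09, adjusted p = 7.95e-06). These 2 genes changed less than the OAS genes, and their groups did not overlap. *Isg15*, the ubiquitin-like tag, rose from 4.63, 3.81 and 4.47 to 9.52, 12.7 and 10.3 FPKM (log2 fold change 1.37, SE 0.19, adjusted p = 4.85e-05). *Gbp2*, a guanylate-binding protein that coats pathogen vacuoles, was at 5.45, 6.08 and 6.86 FPKM in WTK and at 13.9, 21.9 and 15.4 FPKM in IgGK (log2 fold change 1.52, SE 0.15, adjusted p = 3.75e-06). *Bst2* encodes tetherin, which holds budding virions at the cell surface, and it rose from 15.9, 19.4 and 20.4 to 46.0, 60.1 and 48.4 FPKM (log2 fold change 1.51, SE 0.16, adjusted p = 5.33e-06). *Ifi27*, of higher level than *Bst2* in kidney, was at 34.3, 30.3 and 37.5 FPKM in WTK and 71.1, 88.0 and 67.0 FPKM in IgGK. The other called members had adjusted p-values of at most 0.0111 and are drawn in the plot of kidney changes.

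The members that did not pass the test in injured kidney were *Igtp*, *Irgm1*, *Irgm2*, *Rsad2* and *Cmpk2*. The IRG GTPases *Igtp*, *Irgm1* and *Irgm2*, which act on parasite vacuoles and on autophagy, were among the more abundant members in vehicle kidney. *Igtp* was at 11.9, 14.9 and 12.8 FPKM in WTK and 14.3, 18.8 and 14.2 FPKM in IgGK, and the groups overlapped. *Irgm1* and *Irgm2* passed the adjusted p but not the size threshold, with log2 fold changes of 0.39 and 0.38. *Rsad2*, which encodes the antiviral enzyme viperin, was at 4.71, 5.28 and 5.20 FPKM in WTK and 4.88, 5.42 and 4.89 FPKM in IgGK. *Cmpk2*, its neighbour on chromosome 12, encodes a mitochondrial nucleotide kinase and was at 2.90, 3.26 and 3.42 FPKM in WTK and 2.95, 2.94 and 2.71 FPKM in IgGK. The log2 differences of the pair were 0.04 and -0.12, and both genes were more abundant in WTK than *Mx1* or *Zbp1*. With library sizes alone as the scaling, which moved the median of all genes from 0.04 to 0.48, the IRG genes passed as well (41 called), *Rsad2* and *Cmpk2* again did not, and the estimate for *Cmpk2* was positive.

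**Figure D2:**
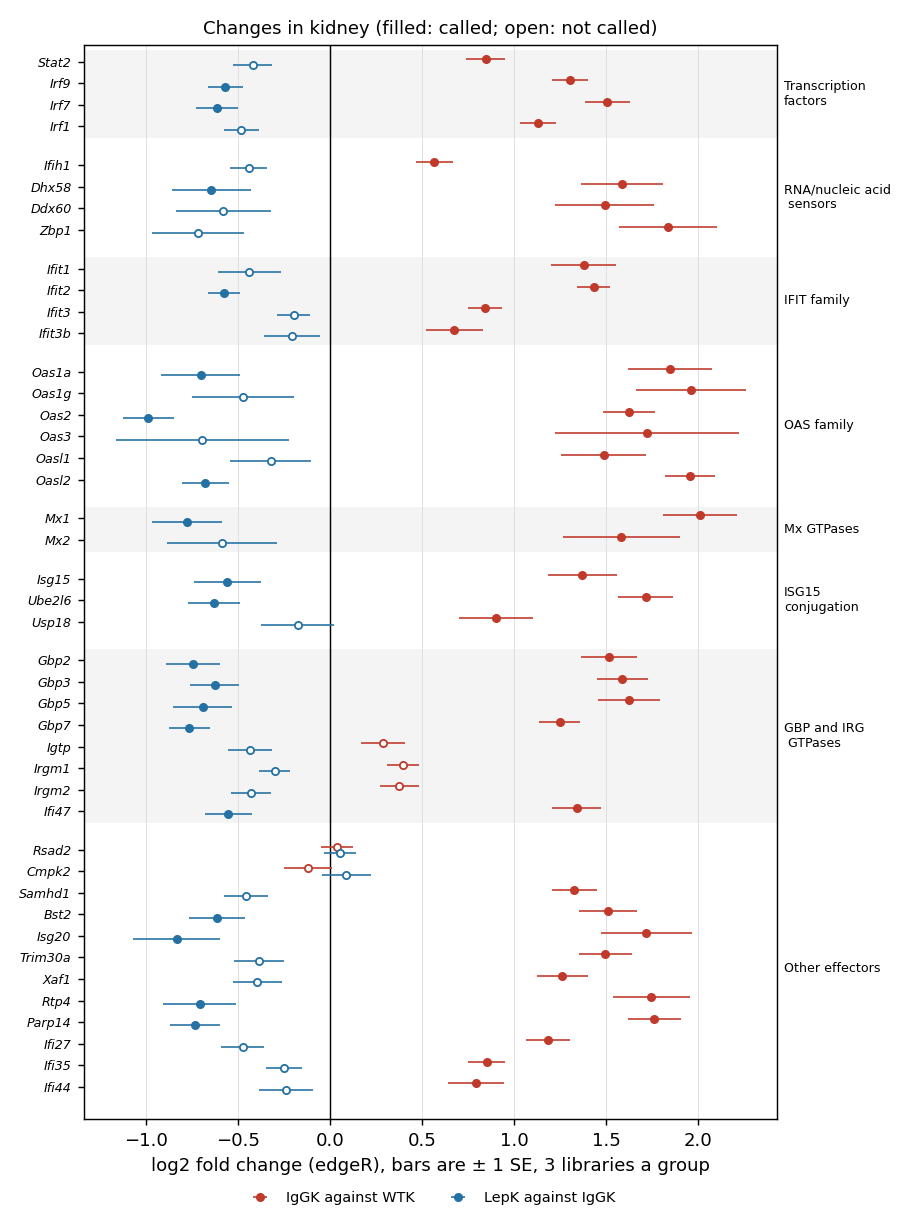
Log2 fold change of each gene (rows, by role) in IgGK against WTK (red) and in LepK against IgGK (blue), with bars of 1 SE and filled symbols for called genes. Both comparisons use the IgGK libraries. The red symbols lie between -0.12 and 2.01 with 38 filled, and the blue ones between -0.99 and 0.09 with 19 filled.

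Under the leptin antibody part of the list was lower again. Of 43 members, 19 were lower in LepK than in IgGK and 0 were higher, where 5.99% of all genes tested were called lower and 4.38% higher. The median log2 difference was -0.56 over the members and -0.01 over all genes tested, and 41 of the 43 estimates were negative. Without the size threshold, 27 members passed the adjusted p. The called members were 2 of 4 transcription factors, 1 of 4 sensors, 1 of 4 IFIT genes, 3 of 6 OAS genes, 1 of 2 Mx genes, 2 of 3 ISG15 genes, 5 of 8 GBP and IRG genes and 4 of 12 other effectors. The count rested in large part on IgGK 2. Without that library 6 members were called (*Gbp2*, *Gbp7*, *Ifit2*, *Oas2*, *Oasl2* and *Parp14*), the median was -0.40, and 40 of 43 estimates were negative. Leaving out other libraries of the 2 groups gave 14 to 21 called members.

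*Oas2* fell most, from 3.396, 4.53 and 3.89 FPKM in IgGK to 2.15, 2.15 and 1.76 FPKM in LepK (log2 fold change -0.99, SE 0.14, adjusted p = 0.00065). *Isg20*, a 3′-5′ exonuclease of single-stranded RNA, fell from 2.12, 3.26 and 2.45 to 1.68, 1.34 and 1.45 FPKM (log2 fold change -0.84, SE 0.24, adjusted p = 0.0253), a call that was kept in 2 of 6 fits that left out 1 library. *Mx1* fell from 1.61, 2.40 and 1.92 to 1.24, 1.03 and 1.24 FPKM (log2 fold change -0.78, SE 0.19, adjusted p = 0.0124), and without IgGK 2 it did not pass. The GBP proteins *Gbp7* and *Gbp2* kept their calls whichever library was left out. *Gbp7* was at 4.59, 5.26 and 4.25 FPKM in IgGK and 2.88, 2.86 and 2.71 FPKM in LepK (log2 fold change -0.76, SE 0.11, adjusted p = 0.000727). *Gbp2* was at 13.9, 21.9 and 15.4 FPKM in IgGK and 9.53, 11.3 and 10.3 FPKM in LepK (log2 fold change -0.74, SE 0.15, adjusted p = 0.00417). For each of these 5 genes every LepK library lay below every IgGK library, as for 34 of the 43 members and 3826 of all 19593 genes tested. The 5 were picked by the size of their fall, so this is partly built in.

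In the other role groups, the called member with the highest mean FPKM over all 15 libraries fell by less than these 5 genes. *Irf7*, the factor that amplifies type I interferon production, went from 10.1, 13.7 and 10.5 to 7.35, 7.71 and 7.67 FPKM (log2 fold change -0.62, SE 0.12, adjusted p = 0.00314). *Dhx58*, which encodes the RNA sensor LGP2, went from 1.79, 2.78 and 1.79 to 1.56, 1.44 and 1.14 FPKM (log2 fold change -0.65, SE 0.21, adjusted p = 0.0499). The *Dhx58* call lay at the threshold and was lost in each fit that left out 1 library. *Ifit2*, which binds AU-rich RNA, went from 7.80, 6.94 and 6.98 to 4.57, 4.83 and 5.40 FPKM (log2 fold change -0.58, SE 0.09, adjusted p = 0.000951) and *Oasl2* from 5.74, 7.10 and 5.96 to 3.61, 4.58 and 3.75 FPKM (log2 fold change -0.68, SE 0.13, adjusted p = 0.00314). Both of these kept their calls without any 1 library. *Isg15* moved from 9.52, 12.7 and 10.3 to 7.40, 8.87 and 6.19 FPKM (log2 fold change -0.56, SE 0.18, adjusted p = 0.0461) and kept its call in 1 of 6 such fits. *Bst2* fell from 46.0, 60.1 and 48.4 to 25.8, 40.0 and 36.8 FPKM (log2 fold change -0.62, SE 0.15, adjusted p = 0.0139) and kept its call in 4 of the 6. *Bst2* in LepK 1 was the lowest injured-kidney value, and the groups did not overlap.

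The 24 members that did not pass ranged from -0.72 to 0.09 on the log2 scale. *Ifit3*, the most abundant IFIT gene, was at 21.1, 22.8 and 19.6 FPKM in LepK against 21.9, 27.3 and 22.5 FPKM in IgGK, and the groups overlapped. *Irf1* was at 6.92, 7.91 and 7.89 FPKM in LepK and below every IgGK library, with a log2 difference of -0.48 that missed the size threshold. *Rsad2* and *Cmpk2* were the members with positive estimates, 0.05 and 0.09, which turned negative with library sizes alone as the scaling, where the median of all genes was -0.19 and 30 members were lower.

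Compared with vehicle kidney, most of the list was still high under the antibody. In LepK against WTK, 33 of 43 members were higher and 0 lower, where 15.2% of all genes tested were called higher and 7.30% lower, and the median over the members was 0.87. The largest differences were those of *Oas1g* (log2 fold change 1.49, SE 0.30, adjusted p = 0.00186), *Oasl2* (1.28, SE 0.14, adjusted p = 2.56e-05), *Mx1* (1.23, SE 0.20, adjusted p = 0.000512), *Oasl1* (1.17, SE 0.23, adjusted p = 0.00173) and *Oas1a* (1.14, SE 0.23, adjusted p = 0.00187). *Oasl1*, known to restrain *Irf7* translation, was at 1.31, 0.927 and 1.41 FPKM in WTK, 2.66, 4.33 and 3 FPKM in IgGK and 2.85, 2.14 and 3.15 FPKM in LepK, so the injured groups overlapped with each other and not with vehicle. For *Oas1g* LepK stood at 1.55, 2.63 and 1.24 FPKM, with LepK 2 inside the IgGK range. The abundant members were higher as well: *Irf1* by 0.64 (SE 0.10, adjusted p = 0.000305), *Zbp1* by 1.12 (SE 0.27, adjusted p = 0.00539), *Ifit3* by 0.64 (SE 0.09, adjusted p = 0.00021), *Isg15* by 0.81 (SE 0.19, adjusted p = 0.00467), *Gbp2* by 0.77 (SE 0.15, adjusted p = 0.00175) and *Bst2* by 0.89 (SE 0.16, adjusted p = 0.00085) on the log2 scale. The 10 that did not pass were *Stat2*, *Ifih1*, *Ifit3b*, *Oas3*, *Gbp7*, *Igtp*, *Irgm1*, *Irgm2*, *Rsad2* and *Cmpk2*. IgGK and LepK are each set against the same WTK libraries, so these values and the injury values are not independent.

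In bleomycin lung the member levels overlapped those of injured kidney. A total of 14 members had a mean over 10 FPKM in IgGL and 17 in LepL, against 11 in IgGK, and *Bst2* was the highest in both groups at 99.49 and 101.8 FPKM. The member sum was 526, 442.3 and 587.1 FPKM in the IgGL libraries and 614.1, 516.7 and 580.2 FPKM in LepL. The groups overlapped, and IgGL 2 lay below IgGK 2. *Bst2* itself was at 98.0, 75.5 and 125 FPKM in IgGL and 118, 87.6 and 100.1 FPKM in LepL, without a difference beyond the spread (log2 difference -0.0025, SE 0.19).

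**Figure D3:**
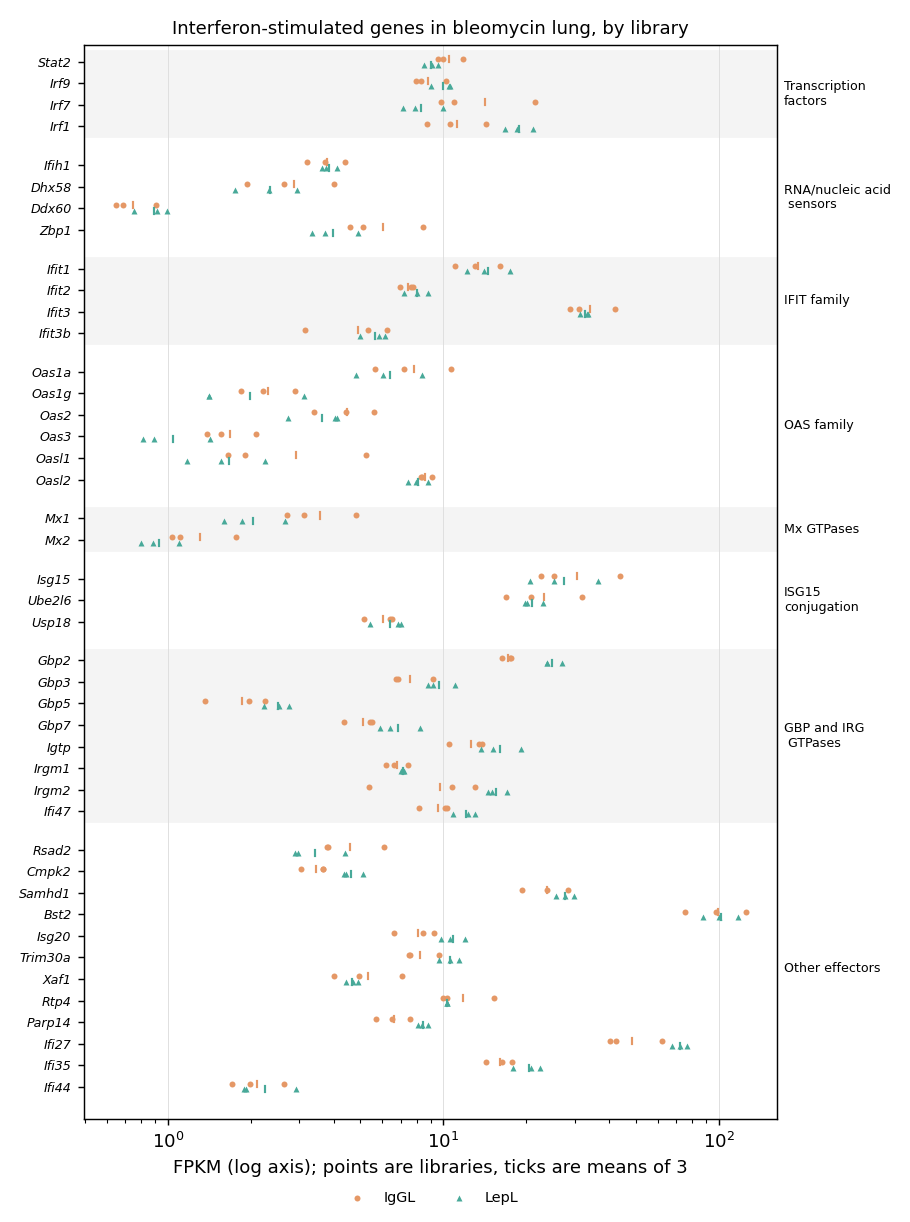
Level of each of the 43 genes (rows, by role) in the 6 lung libraries, in FPKM on a log axis, with points for libraries and ticks for the means of 3. The LepL triangles of *Irf1* and *Gbp2* lie to the right of all IgGL circles, and for many OAS, Mx and ISG15 genes 1 IgGL circle, from IgGL 3, stands to the right of the rest.

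In lung the list showed no common direction under the antibody. Of 43 members, 1 was higher in LepL than in IgGL and 0 were lower, where 1.78% of all genes tested were called higher and 2.36% lower. The median was 0.05 over the members and 0.00 over all genes, with 23 positive and 20 negative estimates. The member median was 0.13 with 12 negative estimates without IgGL 3, -0.06 with 23 negative without LepL 1 and -0.04 with 24 negative without IgGL 2, so its sign turned with single libraries. At an unadjusted p under 0.05 in edgeR, 11 members were higher and 4 lower, where 2599 and 2758 of all 19617 genes tested were. DESeq2 called 3 members higher and 3 lower, where it called 1242 and 1108 of all genes. The groups did not overlap for 11 members that were higher and 3 that were lower in LepL, against 16.0% and 17.3% of all genes tested, so the members stood above the share of all genes for higher levels and below it for lower ones. The called member was *Irf1*, at 14.3, 10.6 and 8.72 FPKM in IgGL and 18.5, 16.7 and 21.1 FPKM in LepL (log2 fold change 0.72, SE 0.17, adjusted p = 0.0498). Its call lay at the threshold and was kept in 1 of 6 fits that left out 1 library. *Gbp2* was at 16.4, 17.6 and 17.5 FPKM in IgGL and 23.8, 23.7 and 26.9 FPKM in LepL, with a log2 difference of 0.50 (SE 0.10, adjusted p = 0.0365) that fell short of the size threshold by its further decimals. It is named here because its groups stood apart.

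In lung the estimates of GBP and IRG genes had another sign than those of OAS and Mx genes, while 0 members of these groups were called in edgeR with TMM scaling. Of them, DESeq2 called *Gbp2*, *Mx1* and *Oas3*, and edgeR called *Gbp2* with RLE or upper-quartile scaling. All 8 GBP and IRG estimates were positive, from 0.04 for *Irgm1* to 0.65 for *Irgm2*, with a median of 0.35. All 6 OAS estimates were negative, from -0.12 for *Oasl2* to -0.86 for *Oasl1*, with a median of -0.33, and the estimates for *Mx1* and *Mx2* were -0.84 and -0.53. These signs were the same under TMM, RLE, library-size and upper-quartile scaling. For the OAS and Mx genes they also held whichever library was left out, but without IgGL 3 the OAS median was -0.10, and without IgGL 1 the GBP and IRG group had 7 positive and 1 negative estimate. *Oasl1* shows the part of IgGL 3, with 1.65, 1.91 and 5.22 FPKM in IgGL and 2.26, 1.56 and 1.17 FPKM in LepL. *Irf7* was at 10.97, 9.81 and 21.6 FPKM in IgGL and 9.94, 7.11 and 7.87 FPKM in LepL, where IgGL 3 again stood apart from the rest. *Isg15* was at 25.3, 22.6 and 43.8 FPKM in IgGL and 36.4, 20.6 and 25.3 FPKM in LepL, and *Ifit3* at 31.2, 28.9 and 42.1 and 33.2, 31.5 and 33.5 FPKM. The groups overlapped for both genes.

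The antibody effect was then compared between the organs in a single fit of the 12 libraries from injured animals, at an adjusted p under 0.05. For 12 of 43 members the log2 fold change under the antibody was lower in kidney than in lung, and for 0 it was higher, where 3.62% of all genes tested were lower and 3.51% higher. The median difference was -0.45 over the members and -0.01 over all genes. The 12 were *Irf1*, *Irf9*, *Ifit2*, *Gbp2*, *Gbp3*, *Gbp5*, *Gbp7*, *Ifi47*, *Isg20*, *Trim30a*, *Parp14* and *Ifi27*, so that 5 of the 8 GBP and IRG genes and no OAS, Mx or ISG15 gene were among them in edgeR with TMM scaling. *Oasl2* was called as well by DESeq2, with library-size or upper-quartile scaling, with no filter or another filter on low counts, and without LepK 2. *Gbp2* differed by -1.21 (SE 0.20, adjusted p = 0.00878), *Isg20* by -1.19 (SE 0.26, adjusted p = 0.0211) and *Irf1* by -1.17 (SE 0.21, adjusted p = 0.0138). *Gbp7* differed by -1.13 (SE 0.19, adjusted p = 0.00878), *Gbp5* by -1.06 (SE 0.25, adjusted p = 0.0276), *Ifi27* by -0.99 (SE 0.22, adjusted p = 0.0215) and *Ifit2* by -0.62 (SE 0.14, adjusted p = 0.0245). In all 12 the kidney estimate was negative and the lung estimate positive, signs that are partly built in, since the 12 were picked by this difference. *Irf7*, by contrast, was negative in both organs, and its effects did not differ beyond their error (difference 0.22, SE 0.35, adjusted p = 0.743). *Gbp2*, *Gbp7*, *Irf1* and *Parp14* were called in each of the 20 alternatives that keep the call rule. The count was 4 without IgGK 2, 6 without LepK 1, 6 without IgGL 2, 5 without LepL 3 and 8 to 16 without any other single library. Kidney and lung differ here in injury, day, agent and whether dosing ran until collection, so organ and model cannot be told apart.

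**Figure D4:**
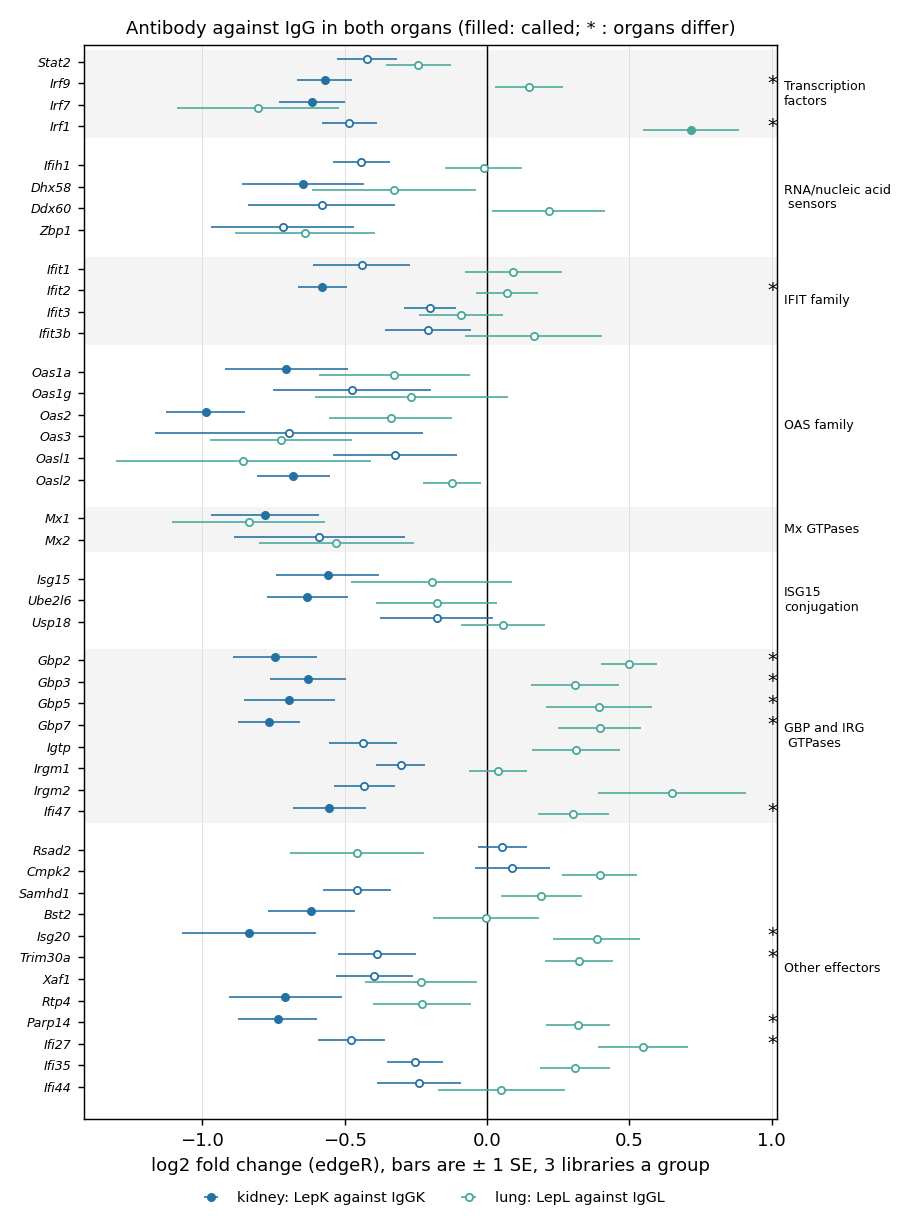
Log2 fold change under the leptin antibody for each gene (rows, by role) in kidney (LepK against IgGK, blue) and in lung (LepL against IgGL, green), with bars of 1 SE, filled symbols for called genes and asterisks for the 12 genes whose effects differed between the organs. All 8 GBP and IRG genes lie left of 0 in kidney and right of 0 in lung, while the OAS and Mx genes lie left of 0 in both.

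The interferons themselves were hardly seen. Of 21 interferon genes in the table, 1 had enough counts to be tested in kidney and 0 in lung. That gene, *Ifng*, was at 0.106, 0.303 and 0.185 FPKM in WTK, 0, 0.320 and 0.215 FPKM in IgGK and 0.0418, 0.0636 and 0.0466 FPKM in LepK, and it was not called (log2 difference -0.09 in IgGK and -1.81 in LepK). In lung *Ifng* fell below the filter and was not tested, with 2, 2 and 0 reads (0.0298, 0.0293 and 0 FPKM) in IgGL and 8, 12 and 9 reads (0.142, 0.189 and 0.123 FPKM) in LepL, and every LepL library lay above every IgGL library. In kidney the values rested on 0 to 18 reads a library, so only large changes of this gene were detectable.

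Part of the interferon receptor genes changed in kidney. In IgGK against WTK, 3 of 6 receptor genes rose, where 21.7% of all genes tested were called higher. These were *Ifngr1*, the ligand-binding chain for interferon-gamma (log2 fold change 1.32), *Ifngr2* (1.06) and *Ifnar2* (0.94). The same 3 fell under the antibody, their log2 fold changes being -0.65, -0.60 and -0.50. In lung 0 of 6 passed in edgeR, with 1 higher and 2 lower at an unadjusted p under 0.05. Of all 19617 genes tested in lung, 2599 were higher and 2758 lower at that level. The kinase gene *Tyk2*, whose product sits on the type I receptor, rose with injury as well (0.53).

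Genes that induce interferon were higher in injured kidney for 9 of 14 tested and lower in LepK than in IgGK for 4. Of all genes tested, 21.7% were called higher in IgGK than in WTK and 5.99% lower in LepK than in IgGK. In lung 0 inducers were called (1 higher and 5 lower at an unadjusted p under 0.05 in edgeR). *Tlr9* (log2 fold change 2.76), the endosomal sensor of CpG DNA, *Sting1* (2.45), the adaptor of cytosolic DNA sensing, and *Cgas* (2.37), its enzyme, rose most. *Sting1* and *Tlr9* were lower in LepK than in IgGK, at -0.72 and -1.04. Of the 4 inducers called lower there, another gene fell most, at -1.24. The RNA of *Irf3*, a factor that carries the *Sting1* signal, was at 22.3, 22.4 and 21.4 FPKM in WTK and 21.1, 20.8 and 21.9 FPKM in IgGK. Of 7 negative regulators tested, 4 rose, with *Socs3* the largest at 3.33, and *Socs3* alone fell in LepK (-0.84). Among 39 further interferon-responsive genes, 32 rose in IgGK and 15 fell in LepK, and 25 were higher in LepK than in WTK. The antibody effect was lower in kidney than in lung for 8 of the 39. The IFI200 gene *Ifi207* had log2 fold changes of 2.49 with injury and -0.999 with the antibody, and *Slfn2*, a regulator of T cell quiescence, of 2.34 and -0.81. In lung 38 of them were tested: *Herc6* was higher (0.69, SE 0.14, adjusted p = 0.0386), and *Ifi211* (-0.98, SE 0.23, adjusted p = 0.0493) and *Ifitm2* (-0.77, SE 0.14, adjusted p = 0.0354) were lower.

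Markers of several cell types moved with the list in kidney, and those of B cells and NK cells did so for few genes. Of 12 macrophage markers, 11 were higher in IgGK than in WTK and 10 were lower in LepK than in IgGK, and none was at 0 in any group. Their summed FPKM was 97.34 to 119.5 in WTK, 1068 to 1367 in IgGK and 367.7 to 562.9 in LepK. *Cd68*, a lysosomal protein of macrophages, was at 3.05, 2.73 and 3.83 FPKM in WTK, 28.7, 37.5 and 26.5 FPKM in IgGK and 9.80, 13.6 and 12.4 FPKM in LepK. IgGK 2 was the highest of its group in this gene and in the macrophage sum, as it was for most of the list. All 9 T cell markers were higher in IgGK (summed FPKM 4.20 to 5.58 in WTK and 16.34 to 26.91 in IgGK), and 1 of 9 was lower in LepK (12.57 to 17.39 FPKM). Of 7 conventional dendritic cell markers, 7 were higher in IgGK and 2 lower in LepK (summed FPKM 3.81 to 5.66 in WTK, 17.59 to 26.16 in IgGK and 10.92 to 13.8 in LepK). Neutrophil markers were higher in IgGK for 4 of 4 tested and lower in LepK for 4 of 4 (summed FPKM 1.17 to 1.67 in WTK, 7.72 to 13.93 in IgGK and 2.38 to 5.25 in LepK, with 3 of the 8 listed at 0 over WTK and 1 at 0 over each injured group). Fibroblast markers were higher for 8 of 8 and lower in LepK for 7 of 8 (19.79 to 26.99, 134.2 to 154.3 and 52.88 to 84.59 FPKM). Proximal tubule markers went the other way, lower in IgGK for 8 of 8 and higher in LepK for 6 of 8 (2681 to 2785, 660.6 to 847.8 and 1230 to 1522 FPKM). By contrast, 2 of 6 B cell markers (3.77 to 7.02, 4.61 to 8.26 and 5.67 to 8.05 FPKM) and 2 of 7 NK cell markers (2.15 to 3.62, 3.81 to 6.85 and 3.81 to 4.73 FPKM) were higher in IgGK, and 0 of either list were called in LepK against IgGK in edgeR, with 0 at an unadjusted p under 0.05. The part of these cells in the changes of the list was not tested, and in whole tissue fewer cells of a type and less RNA per cell cannot be told apart. *Siglech*, which defines plasmacytoid dendritic cells, was at 0.0405, 0.0579 and 0.0177 FPKM in WTK, 0.110, 0.123 and 0.316 FPKM in IgGK and 0.272, 0.154 and 0.268 FPKM in LepK. Of the 6 markers listed for those cells, 3 were higher and 1 lower in IgGK than in WTK. Their sum, 1075 to 1272 FPKM in WTK, 409.5 to 482.6 in IgGK and 880.1 to 1090 in LepK, was carried by *Klk1*, which kidney tubules also express (1072, 1269 and 1173 FPKM in WTK).

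In lung, part of the neutrophil and fibroblast markers were lower under the antibody, as in kidney, while the NK cell estimates were positive. The 7 NK cell markers summed to 3.67 to 8.02 FPKM in IgGL and to 13.93 to 20.87 FPKM in LepL, and 1 of them, *Gzma* (granzyme A), was called higher (2.17, SE 0.38, adjusted p = 0.0327), while 7 of 7 were higher at an unadjusted p under 0.05. None of the 7 was at 0 over a group, though *Ncr1* was at 0.401, 0 and 0.160 FPKM in IgGL and 0.640, 0.715 and 1.47 FPKM in LepL. Macrophage markers were lower for 3 of 12 (*C1qc*, *Fcgr1* and *Mrc1*), yet their summed FPKM was 1970 to 3552 in IgGL and 4257 to 4418 in LepL. *Lyz2*, which alveolar type 2 cells also express, had a log2 difference of 0.98 against that direction. Neutrophil markers were lower for 5 of 7 tested, with 135 to 358.8 FPKM in IgGL and 49.98 to 82.27 FPKM in LepL. Alveolar markers were higher for 3 of 7, and fibroblast markers were lower for 5 of 8. Estimates were positive for 9 of 9 T cell and 6 of 6 B cell markers. Of each of these 2 lists 0 were called, and 2 were higher at an unadjusted p under 0.05 in edgeR. The part of these cells in the lung values of *Irf1* and the GBP genes was not tested.

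**Figure D5:**
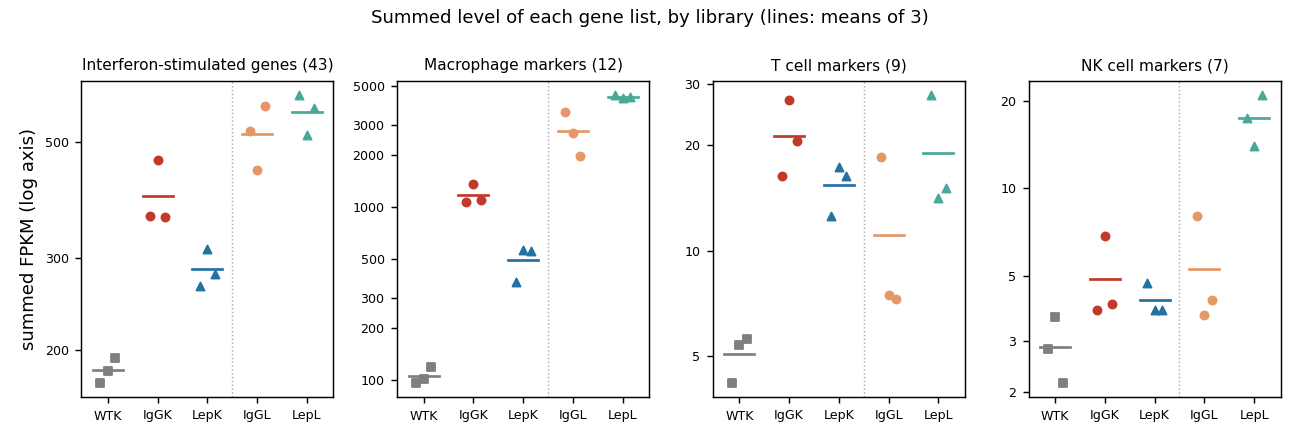
Summed FPKM on log axes of the 43 interferon-stimulated genes and of the macrophage, T cell and NK cell markers, with a point for each of the 3 libraries of a group and a line at the mean. In kidney the list and the macrophage markers are lowest in WTK and highest in IgGK, and in lung the NK cell markers of the 3 LepL libraries lie above those of the 3 IgGL libraries.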

How the data were processed

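Poly(A) RNA from 9 kidneys and 6 lungs was sequenced in non-directional libraries, and 1 table of the whole series was used. It held the deposited counts per gene, which the authors did not normalize, and the authors' FPKM values, normalized for gene length and read number after a scaling of each library. The labels list the build GRCm39 (mm39), DESeq2 and DESeq. Versions and the aligner are not given in the sources used here. The table's 15 columns of the authors' own comparisons (fold changes and p-values) were not used. Libraries were grouped by title, tissue and treatment labels. A further line in each record names a column of another table that disagrees with those labels, and it was not used.

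Counts were tested in edgeR 4.0.16 (limma 3.58.1, R 4.3.3) with filterByExpr (minimum count 10, minimum total 15), TMM scaling and the quasi-likelihood test, in the 9 kidney libraries and the 6 lung libraries apart, with 6 and 4 residual degrees of freedom. The organ difference of the antibody effect (kidney minus lung) was an interaction term in the 12 libraries from injured mice, with 8. P-values were adjusted by the Benjamini-Hochberg method over all genes tested and are two-sided. Calls required an adjusted p under 0.05 and a log2 fold change beyond 0.5 in size, and for the interaction the adjusted p alone. SEs were derived from the fold change and its F statistic. P-values set each group difference against the spread between these libraries, with 3 in each group. The steps were tested on simulated data.

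The members and all gene lists were chosen with earlier results of these data known. Fold changes with SE and adjusted p are given for the 5 called members with the largest change in each direction and the most abundant called member of each role group, and levels for the most abundant member of each group. *Igtp*, *Irgm1*, *Irgm2*, *Rsad2*, *Cmpk2*, *Irf3*, *Cd68*, *Siglech*, *Ncr1*, *Gbp2* in lung, *Irf7* and *Oasl1* in lung and in the interaction, *Bst2* in lung and *Ifi27* in kidney were singled out after their values were seen. Alternatives were other scalings, DESeq2 1.42.0, other filters on low counts, other thresholds, all 15 libraries in 1 fit, a replicate block and each library left out. No pairing by replicate number is named in the labels, and the main fits used none. Deviations of same-numbered libraries correlated at 0.227, 0.215 and -0.0487 between IgGK and LepK and at -0.0482, 0.116 and -0.0968 in lung. The limit set for pairing was 0.1. Some of these values lay above it, so whether those libraries were linked was not settled. The results of 1 list of signaling genes are not reported here.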

Additional observations from a re-analysis of the deposited data

Results flagged for a closer look

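For 12 members the log2 fold change under the leptin antibody differed between kidney and lung, by the interaction test in edgeR at an adjusted p under 0.05. In each the kidney estimate was negative, the lung estimate positive and the difference, kidney minus lung, below 0. The 12 were picked by this difference, so opposite signs are partly built into the choice. In the lung fit in edgeR, 2 of all 43 members passed an adjusted p under 0.05, *Irf1* and *Gbp2*. The lung estimates of *Ifit2* (SE 0.11, unadjusted p = 0.536) and *Irf9* (SE 0.12, unadjusted p = 0.242) lay near 0. Among the GBP and IRG GTPases, which interferon-gamma induces, the difference was -1.21 for *Gbp2* (-0.74 in kidney and 0.50 in lung), -1.13 for *Gbp7* (-0.76 in kidney and 0.40 in lung), -1.06 for *Gbp5* (-0.69 in kidney and 0.39 in lung), -0.908 for *Gbp3* (-0.63 in kidney and 0.31 in lung) and -0.826 for *Ifi47* (-0.55 in kidney and 0.30 in lung). Among the transcription factors it was -1.17 for *Irf1* (-0.48 in kidney and 0.72 in lung) and -0.686 for *Irf9* (-0.57 in kidney and 0.15 in lung). For the RNA-binding *Ifit2* it was -0.618 (-0.58 in kidney and 0.07 in lung). Among the other effectors it was -1.19 for *Isg20* (-0.84 in kidney and 0.39 in lung), -1.02 for *Parp14* (-0.73 in kidney and 0.32 in lung), -0.993 for *Ifi27* (-0.48 in kidney and 0.55 in lung) and -0.681 for *Trim30a* (-0.39 in kidney and 0.32 in lung). In lung edgeR with TMM scaling called *Irf1* among the 12, DESeq2 called *Irf1*, *Gbp2* and *Ifi27*, and edgeR did not call *Irf1*, *Trim30a* and *Ifi27* in kidney. Without IgGK 2 the test called 4 members, without LepL 3 5, and without LepK 1 or IgGL 2 6 in each case. In lung the NK cell markers, which belong to cells that make interferon-gamma, were higher in LepL at an unadjusted p under 0.05 in edgeR for 7 of 7 with 1 called. Of the T cell markers, 9 of 9 had positive estimates, with 2 at that level and 0 called. *Ifng* was under the filter on low counts in the lung fit. In the fit of both organs 1 interferon gene was tested, with a difference of -4.51 (SE 1.5) at an unadjusted p under 0.05, and it was not called. The part of NK and T cells in the differences of the 12 members was not tested.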

How the results depend on the processing

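The counts of members in kidney were within 1.5 times of those given under each alternative, with these exceptions, whose cause was not tested beyond what a stricter or looser threshold does by construction. The 19 members lower in LepK than in IgGK became 30 with library sizes alone as the scaling, 0 at an absolute log2 fold change over 1 in edgeR, and 6 to 21 without 1 library (6 without IgGK 2, 14 without LepK 1 and 14 without LepK 3). The 33 higher in LepK than in WTK became 10 at the threshold of 1. With library-size scaling, all genes tested had a median of 0.481 for injury, -0.19 for the antibody in kidney, 0.291 for LepK against WTK and -0.253 for the difference between organs.

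In lung the single higher member became 2 (RLE scaling), 2 (upper-quartile scaling), 3 (DESeq2), 4 (no filter), 2 (a mean of at least 1 CPM), 4 (all 15 libraries), 0 (replicate block), 0 (threshold of 1), 2 (no size threshold) and 0 to 3 without 1 library. The lower members, 0 in the main test, became 3 (DESeq2), 5 (no filter), 2 (all 15 libraries) and 0 to 2 without 1 library. The 12 members with an organ difference became 20 (library-size scaling), 6 (threshold of 1) and 4 to 16 without 1 library. The replicate block gave 38, 18 and 33 in kidney and 12 for the organ difference, and no pairing by these numbers is named in the labels. Of 634 alternative values for the 40 named values, 583 kept the call, 51 lost it and 0 changed sign. Over all genes, leaving out 1 lung library gave 0 to 1937 higher and 0 to 1602 lower.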
